A study of Mus musculus with 19 samples.

Results

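The effect of 2i/L medium on mouse embryonic stem cells (ESCs) was compared between passage 20 and passage 10. For each gene, the log2 difference between 2i/L and S/L at passage 10 was subtracted from the same difference at passage 20, and the result is called the passage difference here. A positive passage difference means that the level in 2i/L, relative to S/L of the same passage, was higher at passage 20 than at passage 10. The comparison used 10 of the 19 RNA-seq libraries of the series and 12777 of 12942 genes. Per the labels, ESC lines J-34 and J-35 at passage 4 were kept in S/L or in 2i/L for 6 passages, which gave 2 libraries of each medium at passage 10. These lines and J-37 were kept in the same media for 16 passages, which gave 3 libraries of each medium at passage 20. All lines are labelled male and carry no named genetic change, and all were grown on mouse embryonic fibroblast feeders and sorted for the surface antigen SSEA1 before RNA extraction. Another 3 libraries came from 2i/L cells of the same lines that were put back into S/L for 3 passages, to passage 23, and are cited beside single results. No label states that libraries of a line came from separate cultures beyond medium and passage, so p-values measure the spread between these lines and libraries.

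S/L stands for serum with leukaemia inhibitory factor (LIF), and 2i/L for LIF with an inhibitor of the kinases Mek1 and Mek2 and an inhibitor of the kinase Gsk3. Mek inhibition blocks the ERK cascade, through which fibroblast growth factor primes ESCs for differentiation. Gsk3 inhibition stabilises beta-catenin and raises Wnt target genes, and ESCs in 2i/L are known for low DNA methylation and a uniform naive state. The series title names extended suppression of Mek1/2, and the comparison asks which parts of the response to 2i/L were the same after short and long culture.

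Levels are CPM, counts scaled to a common total of reads, as deposited by the authors, divided by a library scale factor, and are given per library in the order J-34, J-35 and, at passage 20 and 23, J-37. Differences are on the log2 scale of scaled CPM + 0.5, which understates changes of genes with low CPM, and are given ± the standard error from limma. A gene was called where its adjusted p was below 0.05. The sum of all deposited values was 443796 to 465897 CPM in the libraries of passage 10 and 292986 to 396883 in those of passage 20, and scale factors over all libraries ran from 0.655 to 1.19. Lars2, a feature whose reads resemble ribosomal RNA in such libraries, held 56.9 to 118 deposited CPM at passage 10 and 14870.0 to 29548 at passage 20. Passage and library set therefore cannot be told apart within 1 medium, whereas a shift that both media of a passage share cancels in the passage difference. Lars2 itself differed between the media at passage 20, with 18189 to 29548 deposited CPM in S/L and 14870.0 to 22023 in 2i/L, the sum of deposited values was 292986 to 352804 CPM in S/L and 364749 to 396883 in 2i/L, and the part of this in the results was not tested. The core ESC gene Pou5f1 held 456 and 479 in S/L against 274 and 271 in 2i/L at passage 10, and 405, 361 and 421 against 302, 228 and 259 at passage 20. Every library thus held this transcript at a high level, and its passage difference was not called (0.18 ± 0.15, adjusted p = 0.346). These are bulk libraries, in which fewer cells of a type and less RNA per cell cannot be told apart.

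The 2i/L effect differed between the passages for a large share of the transcriptome. The passage difference was called for 5093 genes, or 39.9% of those tested, of which 2463 were higher (19.3%) and 2630 lower (20.6%). At least a 2-fold change was seen for 807 of the higher and 808 of the lower genes. At passage 10, 2i/L differed from S/L in 49.6% of genes, 25.0% higher and 24.6% lower. At passage 20 it differed in 64.9%, 31.5% higher and 33.4% lower, with 6 libraries in the contrast instead of 4. The absolute 2i/L effect had a median of 0.35 at passage 10 and 0.40 at passage 20. Across the 12777 genes, which are not independent replicates, the effects of both passages had a Pearson r of 0.60 and a Spearman rho of 0.52. They share no library but share lines and media. Without library scaling the split of called genes became 3843 higher and 910 lower, because the median passage difference of all genes moved from -0.03 to 0.29. Directions are therefore given relative to the bulk of genes.

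**Figure D1:**
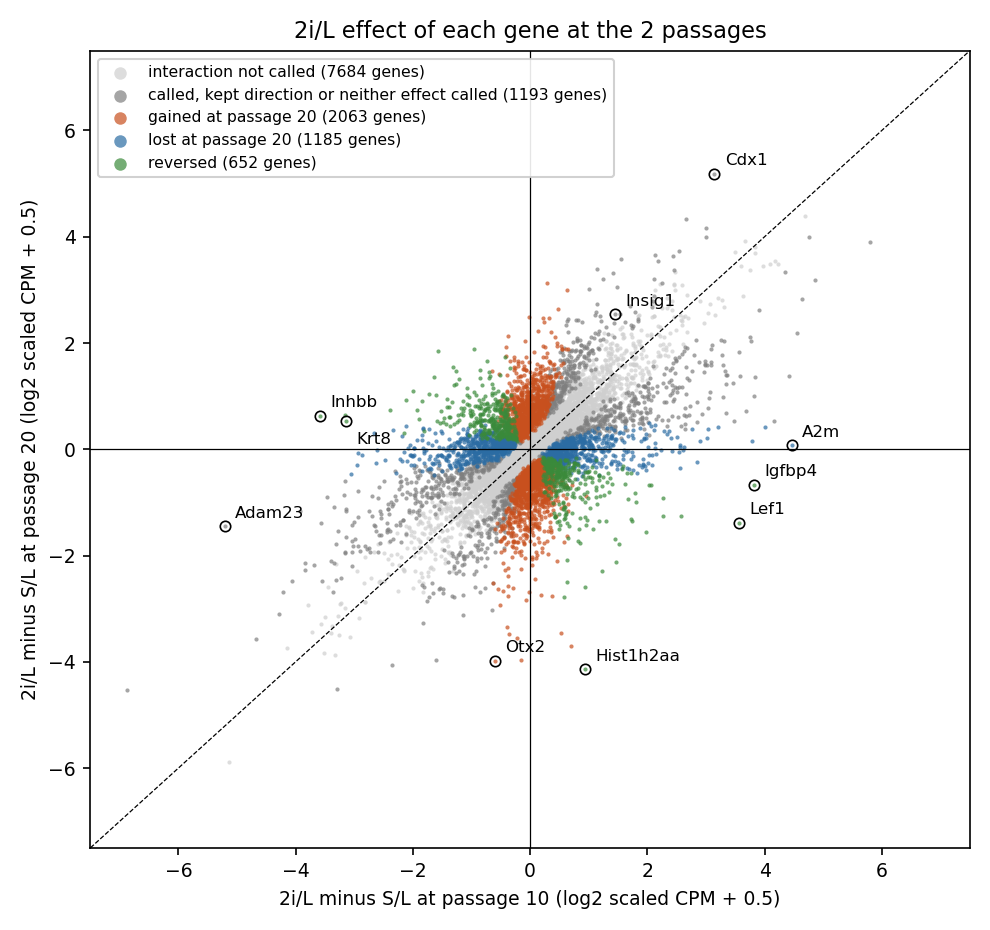
Effect of 2i/L at passage 10 (x axis) and at passage 20 (y axis) for the 12777 genes tested, both as log2 differences of scaled CPM + 0.5 from S/L of the same passage. Colours mark the class of the passage difference, the dashed line marks equal effects, and the 652 genes whose called effect reversed lie above 0 on one axis and below 0 on the other.

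Most called genes had an effect at only 1 of the passages. An effect of 2i/L that was called only at passage 20 was found for 937 genes higher and 1126 genes lower in the passage difference. Called only at passage 10, and so lost, were the effects of 588 genes that had been higher in 2i/L and of 597 that had been lower. Among genes with a called effect of the same direction at both passages, the effect was larger at passage 20 for 269 genes higher in 2i/L and 230 lower in 2i/L. It was smaller for 319 and 292 such genes. Another 330 genes went from lower in 2i/L to higher in 2i/L, and 322 went the other way. Only the test of the passage difference itself, which all of these genes passed, compares the passages.

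Genes on chromosomes 6 and 8 stood out among the genes with a higher passage difference. On chromosome 8, 351 of 684 genes were called higher (51.3%) and 39 lower, with a median of 0.46. On chromosome 6, 234 of 606 were called higher (38.6%) and 60 lower, with a median of 0.31. All other chromosomes together had 1858 of 11269 genes higher (16.5%) and 2483 lower (22.0%), with a median of -0.06. These 2 chromosomes held 23.8% of all higher calls and 112 of the 330 genes that reversed from lower to higher. The chromosome of a gene was taken by symbol from a newer annotation than the authors' build. Positions from that annotation were used here only to order the genes along a chromosome.

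The level of both chromosomes was raised in each of the 3 libraries kept in 2i/L to passage 20. Relative to the mean of S/L at passage 10, the median gene of chromosome 6 stood at 0.33 to 0.50 and that of chromosome 8 at 0.37 to 0.39 (log2, 3 libraries). In S/L at passage 20 the same medians were -0.05 to 0.00 and -0.08 to 0.03, and in 2i/L at passage 10 they were 0.08 to 0.10 and -0.06 to -0.05. On both chromosomes the libraries of 2i/L at passage 20 lay above those of both other groups. With 3 libraries against 3 an exact two-sided permutation test of 2i/L against S/L at passage 20 gave p = 0.1 for each chromosome, the smallest value it can give. Both chromosomes were picked from these same libraries, so the test cannot serve as separate support for the difference. On a linear scale the mean level in 2i/L at passage 20 was 1.31 times that of S/L at passage 10 for chromosome 6 and 1.3 times for chromosome 8. Medians of the other chromosomes in these libraries ran from -0.23 to 0.25, the highest being chromosome 19 in J-34. After the return to S/L, chromosome 6 stood at 0.41 to 0.45 and chromosome 8 at 0.41 to 0.47, and these 3 libraries descend from 2i/L cultures. The rise spanned both chromosomes, since the medians of 4 consecutive stretches of chromosome 6, each with about as many genes, in 2i/L at passage 20 were 0.26 to 0.56 and those of chromosome 8 were 0.28 to 0.46. DNA copy number was not measured. Results on genes of chromosomes 6 and 8 are marked as such.

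**Figure D2:**
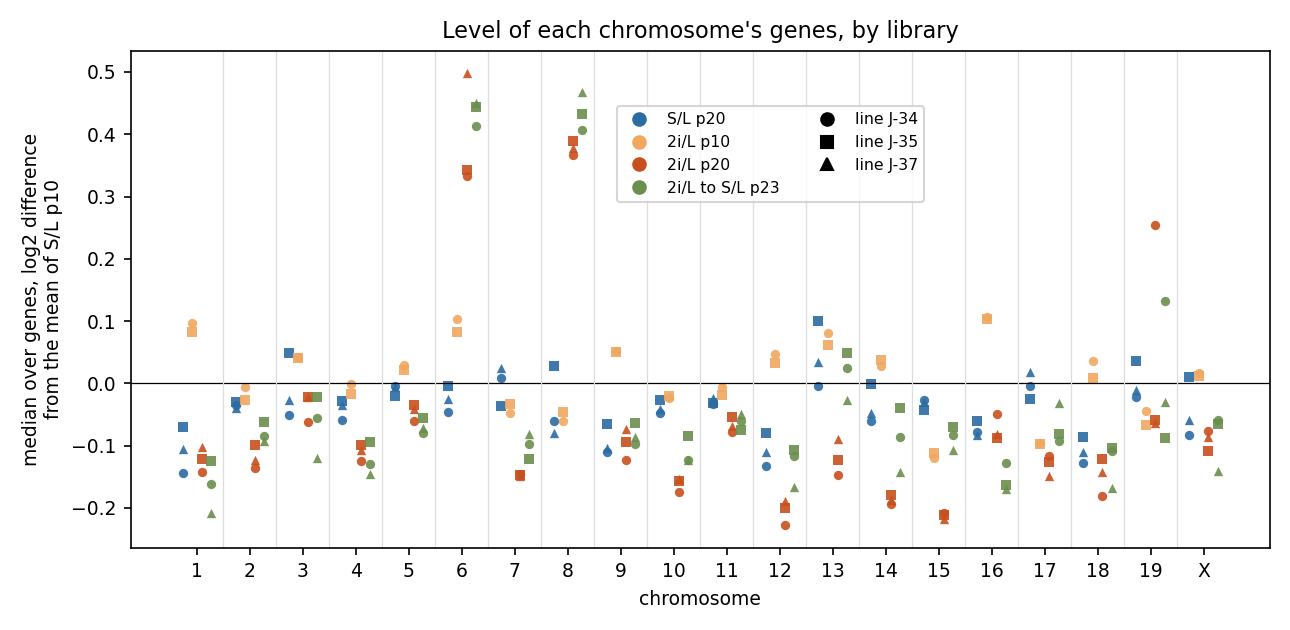
Median log2 difference from S/L at passage 10 per chromosome (x axis) and library, over genes averaging 10 CPM or more, with colours for 2i/L at passage 10, for both media at passage 20 and for the libraries of passage 23, and a marker shape per line. Chromosomes 6 and 8 stand at 0.33 to 0.50 and 0.37 to 0.39 in 2i/L at passage 20 and near 0 in S/L at passage 20.

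Among the genes that were called and reached 5 CPM in at least 1 group, the 12 largest positive passage differences belonged, all but Cbln1, to genes that 2i/L had lowered at passage 10. The largest was that of Inhbb, which encodes the beta-B subunit of activin and inhibin. Inhbb (chromosome 1) held 47.2 and 41.7 in S/L against 3.49 and 3.04 in 2i/L at passage 10, and 4.46, 8.69 and 3.52 against 9.79, 7.28 and 8.08 at passage 20 (4.21 ± 0.35, adjusted p = 3.98e-08). It was lower in both 2i/L libraries at passage 10, while at passage 20 the S/L level had dropped and the media overlapped. Krt8, which encodes a keratin of simple epithelia, held 11.1 and 9.67 in S/L against 0.522 and 0.972 in 2i/L at passage 10, and 3.40, 3.99 and 2.95 against 5.38, 5.32 and 4.87 at passage 20 (3.68 ± 0.28, adjusted p = 1.25e-08). Its partner Krt18 remained lower in 2i/L at both passages, by -3.15 and -1.65, with a passage difference of 1.49 ± 0.37. Cntn2, which encodes a contactin of neuronal cell surfaces, held 10.6 and 10.5 in S/L against 0.522 and 0.997 in 2i/L at passage 10, and 2.31, 1.88 and 2.60 against 3.84, 3.99 and 3.59 at passage 20 (3.81 ± 0.29, adjusted p = 1.76e-08), so that its 2i/L libraries lay below S/L at passage 10 and above it at passage 20.

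Adam23, which encodes a cell surface protein of the disintegrin family, held 64.8 and 63.2 in S/L against 1.05 and 1.45 in 2i/L at passage 10, and 53.7, 38.9 and 49.1 against 17.9, 17.0 and 15.7 at passage 20 (3.76 ± 0.21, adjusted p = 2.05e-10). Here 2i/L stayed below S/L at both passages, but the gap narrowed from -5.21 to -1.45. Rapgef3 encodes an exchange factor for Rap that cAMP activates, and its 2i/L effect went from -1.99 to 1.097 (3.09 ± 0.30, adjusted p = 2.45e-07). The transglutaminase gene Tgm2 went from -2.11 to 0.92, although it had become a low transcript in both media, with 0.878, 1.33 and 0.973 in S/L and 3.68, 2.14 and 1.79 in 2i/L at passage 20. The chromatin organiser gene Satb1 (2.97 ± 0.27) and Nhs (2.86 ± 0.29) lost their lower level in 2i/L, and Kifc3 (chromosome 8, 2.76 ± 0.26), a kinesin gene, kept a reduced one. Cbln1 (chromosome 8), which encodes a synaptic organiser, was the member of these 12 without a called effect at passage 10. It held 1.17 and 0.786 in S/L against 1.24 and 1.33 in 2i/L at passage 10, and 0.541, 0.458 and 0.439 against 8.63, 8.33 and 7.33 at passage 20 (2.85 ± 0.23, adjusted p = 2.79e-08), and the 3 libraries returned to S/L held 0.884, 1.32 and 1.09, so its high level was seen in 2i/L at passage 20.

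The largest negative passage differences included both genes that 2i/L had raised at passage 10 and genes that were high in S/L at passage 20. Lef1, a DNA-binding partner of beta-catenin, held 0.105 and 0.155 in S/L against 6.69 and 7.21 in 2i/L at passage 10, and 13.0, 8.17 and 12.2 against 4.99, 3.35 and 3.48 at passage 20 (-4.94 ± 0.31, adjusted p = 1.28e-09). It was far higher in 2i/L at passage 10 and lower in 2i/L at passage 20, where the S/L libraries had gained it. Igfbp4, which encodes a binding protein of insulin-like growth factors, held 0.966 and 1.17 in S/L against 18.7 and 24.8 in 2i/L at passage 10, and 8.18, 6.46 and 7.16 against 4.99, 5.34 and 3.13 at passage 20 (-4.48 ± 0.30, adjusted p = 3.68e-09). Lefty1, an antagonist and target of Nodal, held 11.7 and 18.9 in S/L against 14.4 and 12.5 in 2i/L at passage 10, and 66.3, 43.1 and 55.1 against 2.48, 3.25 and 3.24 at passage 20 (-3.82 ± 0.50, adjusted p = 6.92e-06). The media overlapped for Lefty1 at passage 10 and were fully apart at passage 20. A2m (chromosome 6), which encodes a secreted protease inhibitor, lost its higher level in 2i/L because S/L reached the same level, with 27.2, 27.9 and 27.3 in S/L and 33.6, 25.6 and 28.3 in 2i/L at passage 20 (-4.39 ± 0.22). Mobp (-3.64 ± 0.28), Tcte2 (-3.63 ± 0.31) and Gpr126 (-3.59 ± 0.32) had 2i/L means of 13.4, 16.3 and 10.5 CPM at passage 10 and 1.27, 1.65 and 0.702 at passage 20. Ephx2, which encodes soluble epoxide hydrolase, was lower in 2i/L only at passage 20 (-3.98 ± 0.32). Trim12c (-3.84 ± 0.28) and Slfn9 (-3.58 ± 0.34) reversed from higher to lower, and the 2 remaining genes were histone genes.

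**Figure D3:**
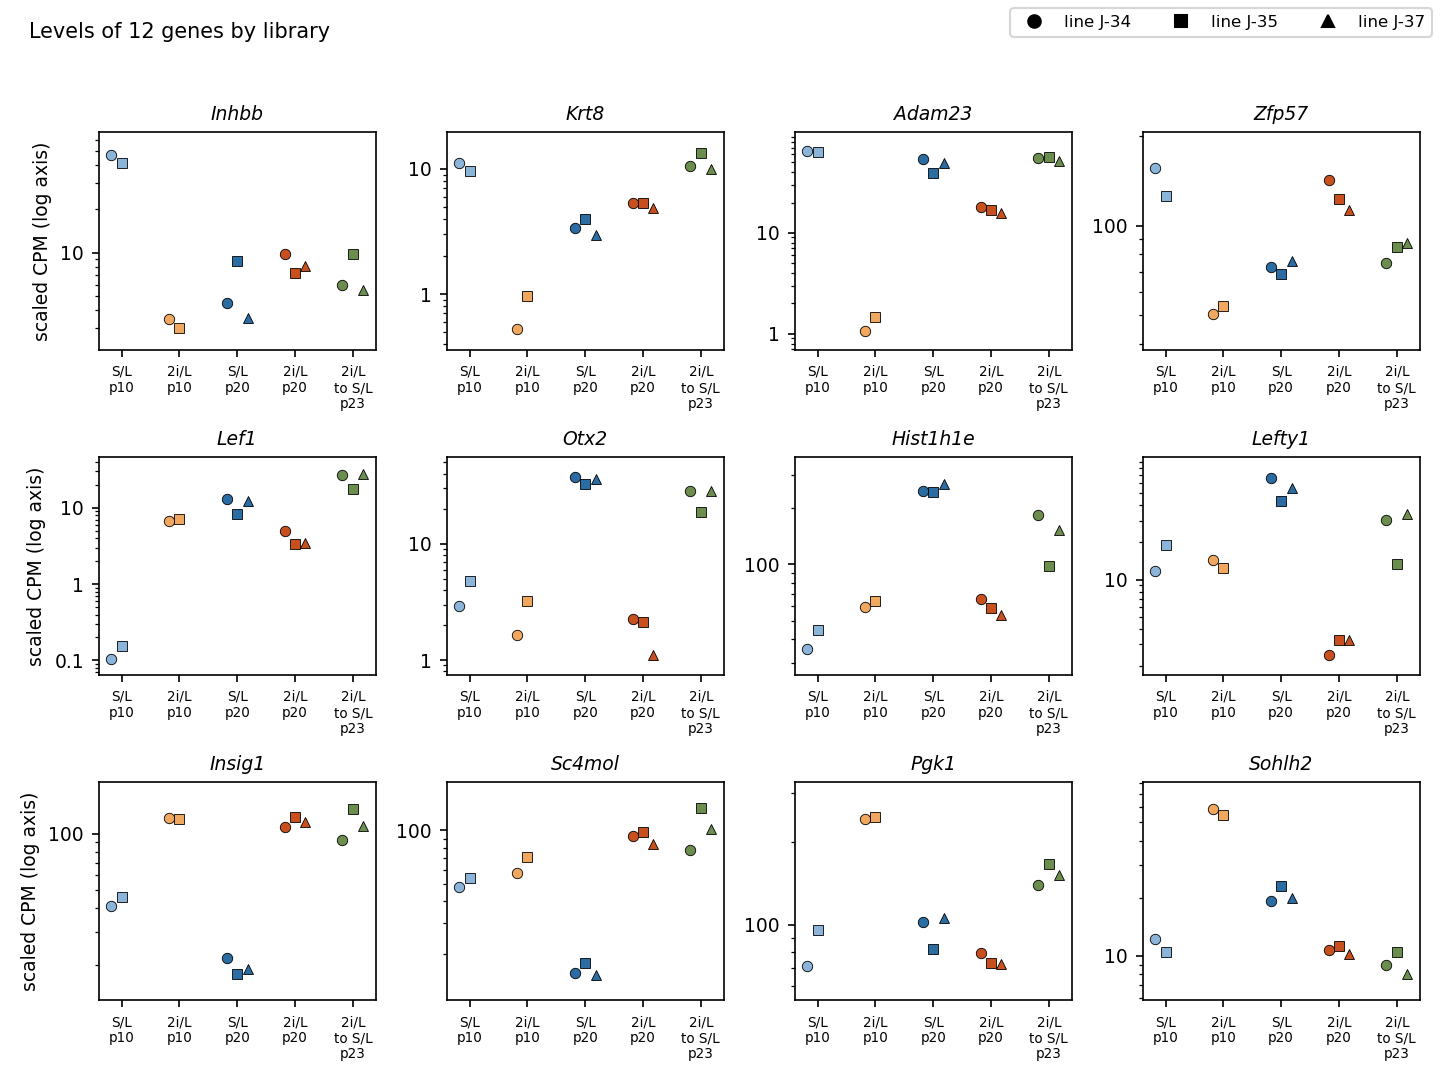
Scaled CPM on a log axis for 12 genes in the S/L and 2i/L libraries of passage 10 and passage 20, and in those returned to S/L at passage 23, with points for libraries, shaped by line. For Lef1, Zfp57 and Krt8 the order of the media at passage 20 is opposite to that at passage 10, while for Otx2 and Lefty1 the media overlap at passage 10 and are apart at passage 20.

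Reversals with a clear effect at both passages were named as well. Bst2 (chromosome 8), which encodes the antiviral surface protein tetherin, held 24.8 and 26.3 in S/L against 7.47 and 8.22 in 2i/L at passage 10, and 11.4, 7.55 and 10.4 against 21.4, 24.3 and 31.6 at passage 20 (3.00 ± 0.28, adjusted p = 1.62e-07). Vash1, an inhibitor of angiogenesis, held 12.8 and 10.3 in S/L against 4.97 and 4.36 in 2i/L at passage 10, and 4.15, 5.41 and 4.45 against 11.3, 12.3 and 13.8 at passage 20 (2.54 ± 0.21, adjusted p = 3.86e-08). Both fell within the S/L libraries and rose within the 2i/L libraries between the passages, so that the order of the media turned around. Other genes that went from lower to higher in 2i/L were Necab2 (chromosome 8, 2.49 ± 0.25), Col5a3 (2.23 ± 0.27) and the riboflavin transporter gene Slc52a3 (2.76 ± 0.27). In the opposite direction, Stc2, which encodes the secreted glycoprotein stanniocalcin 2, held 6.81 and 6.14 in S/L against 18.7 and 18.5 in 2i/L at passage 10, and 31.7, 28.5 and 30.1 against 7.71, 9.80 and 9.68 at passage 20 (-3.14 ± 0.34, adjusted p = 8.32e-07). Fetub (-3.54 ± 0.26), Zfp951 (-2.64 ± 0.34) and Rhox13 (-3.31 ± 0.30) also went from higher to lower. In every one of these genes all 2i/L libraries lay on 1 side of all S/L libraries at passage 10 and on the other side at passage 20. They were picked for large called effects of opposite direction, so this separation follows largely from the choice.

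The gene group that moved most uniformly was that of the replication-dependent histone genes, which supply histones for new chromatin in S phase. Of 52 measured genes 51 were called lower and none higher, with a median passage difference of -1.42 against -0.03 over all genes. Summed over the list, scaled CPM were 3549 to 4341 in S/L and 4281 to 4453 in 2i/L at passage 10, and 7762 to 10394 in S/L and 3527 to 3907 in 2i/L at passage 20. The S/L libraries of passage 20 thus stood above all others of the comparison, and the 2i/L libraries of passage 20 lay near the level of passage 10. The libraries returned to S/L held 5037 to 6746. The median 2i/L effect of these genes was 0.22 at passage 10 and -1.28 at passage 20. The linker histone gene Hist1h1e held 35.5 and 44.6 in S/L against 59.1 and 64.2 in 2i/L at passage 10, and 244, 243 and 268 against 65.8, 58.6 and 53.9 at passage 20 (-2.70 ± 0.23, adjusted p = 6.37e-08). The testis-type genes Hist1h2aa and Hist1h2ba had the largest values, as Hist1h2aa held 0.738 and 0.449 in S/L against 1.52 and 1.65 in 2i/L at passage 10, and 48.0, 36.8 and 53.1 against 1.83, 1.80 and 2.81 at passage 20 (-5.08 ± 0.36, adjusted p = 7.38e-09). Hist1h2ba reached 44.4, 37.1 and 53.9 in S/L and 2.91, 2.78 and 3.26 in 2i/L at passage 20 (-4.40 ± 0.42), from means of 0.458 and 1.06 CPM at passage 10. Hist1h2an also fell (-2.55 ± 0.31). Many of these genes are near-identical copies, so the split of reads among them is uncertain.

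These messenger RNAs normally end in a stem-loop in place of a poly(A) tail, and the libraries were made from RNA depleted of ribosomal RNA. A stem-loop match, with GGNN, CTTTTNAG and NNCC in a row, was found in the GENCODE M21 transcripts of 34 of the 52 genes, and in 22 of 11404 other genes (0.193%). The 6 genes of 1 exon with such a match and the most negative passage differences are shown, since the element is what sets their transcripts apart from other messenger RNA. No match was found for Hist1h2aa and Hist1h2ba, which had the largest values of the list, nor for Hist1h2an. Sequences are of GRCm38, with the matched stem-loop in capitals.
Hist1h1e (chr13:23621777-23621802, - strand): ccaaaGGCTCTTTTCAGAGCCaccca
Hist1h1t (chr13:23696520-23696545, + strand): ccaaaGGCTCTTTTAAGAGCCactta
Hist1h2bh (chr13:23542923-23542948, - strand): ccaaaGGCTCTTTTCAGAGCCactca
Hist4h4 (chr6:136803993-136804018, - strand): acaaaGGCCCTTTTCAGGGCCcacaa
Hist2h4 (chr3:96262934-96262959, - strand): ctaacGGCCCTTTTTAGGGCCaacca
Hist1h2ag (chr13:22042478-22042503, - strand): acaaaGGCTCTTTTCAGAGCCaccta
In 4 of the 6 the run of T is flanked by GGCTC and GAGCC, and in the histone H4 genes Hist4h4 and Hist2h4 by GGCCC and GGGCC, so the stem can pair in each. Of these, Hist4h4 lies on chromosome 6 and was lower all the same. Among 12 replication-independent histone genes, 2 were called higher and 4 lower (median -0.14). Of 41 DNA replication genes 6 were higher and 9 lower (median -0.10), and of 15 genes for histone mRNA processing none was higher and 5 were lower (median -0.31). Over all genes tested 19.3% were higher and 20.6% lower. These 3 lists were added after the histone result had been seen. The share of reads outside the genes listed also differed between the media at passage 20, and its part in the histone result was not tested.

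Genes of cholesterol synthesis moved the other way. Of 19 measured enzymes 13 were called higher in the passage difference and none lower, with a median of 1.07. At passage 10, 2i/L was above S/L for 10 and below for 2 of them, whereas at passage 20 it was above for all 19. Summed scaled CPM were 511 to 556 in S/L and 690.3 to 744 in 2i/L at passage 10, and 273 to 292 and 675 to 734 at passage 20. The low values were thus those of S/L at passage 20, and the libraries returned from 2i/L to S/L, at 662 to 921, did not share them. Sc4mol (chromosome 8), a sterol methyl oxidase gene, held 47.9 and 53.7 in S/L against 57.3 and 70.5 in 2i/L at passage 10, and 15.6, 17.8 and 15.2 against 93.1, 98.0 and 84.2 at passage 20 (2.14 ± 0.21, adjusted p = 2.75e-07). Mvd (chromosome 8), which makes isopentenyl pyrophosphate from mevalonate diphosphate, held 16.4 and 18.4 in S/L against 16.4 and 16.5 in 2i/L at passage 10, and 7.59, 7.65 and 7.23 against 33.3, 34.6 and 29.7 at passage 20 (2.12 ± 0.20, adjusted p = 1.92e-07). The mevalonate kinase gene Mvk (1.51 ± 0.18) and Pmvk (1.498 ± 0.20), which acts on its product, followed, and Pmvk went from lower to higher in 2i/L. The squalene epoxidase gene Sqle alone had a value below 0, and was not called (-0.08 ± 0.18, adjusted p = 0.762). Without chromosomes 6 and 8, which hold Sc4mol and Mvd, 11 of 17 were higher.

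Sterol uptake and its control moved in the same direction. Of 13 genes 6 were higher and none lower (median 0.53). Insig1, which retains the sterol regulator SREBP in the endoplasmic reticulum and is also its target, held 41.3 and 46.1 in S/L against 120.4 and 119 in 2i/L at passage 10, and 21.8, 17.8 and 19 against 109, 122 and 115 at passage 20 (1.09 ± 0.17, adjusted p = 3.88e-05). All 2i/L libraries stood above S/L at both passages, and the S/L level was lower at passage 20. The SREBP gene Srebf2 was higher too (0.85 ± 0.18). In fatty acid synthesis 7 of 14 genes were higher and 1 lower (median 0.47). The elongase genes Elovl6 (1.21 ± 0.14) and Elovl5 (1.05 ± 0.15), the acetyl-CoA carboxylase gene Acaca (1.20 ± 0.19) and the desaturase gene Fads2 (0.99 ± 0.16) had the largest values. The malic enzyme gene Me1, which supplies NADPH, was the one that fell (-0.92).

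Promoter windows of 250 bases before to 50 bases after the RefSeq start, on either strand, were searched for motifs known for these pathways. The sterol regulatory element core TCACNCCAC was in none of 14 cholesterol synthesis promoters and in 1.44% of 9909 promoters of tested genes. CCAAT, the box bound by NF-Y, was in 13 of the 14 (92.9%) and in 43.6% of all. Windows of 6 genes of the cholesterol and sterol lists show it, from RefSeq on GRCm38.p6, read along the gene with CCAAT or its reverse complement ATTGG in capitals.
Sc4mol (chr8:64733609-64733653, - strand): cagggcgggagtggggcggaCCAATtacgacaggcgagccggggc
Mvd (chr8:122443425-122443469, - strand): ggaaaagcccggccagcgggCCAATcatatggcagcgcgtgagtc
Mvk (chr5:114444235-114444279, + strand): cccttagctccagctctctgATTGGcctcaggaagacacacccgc
Pmvk (chr3:89454385-89454429, + strand): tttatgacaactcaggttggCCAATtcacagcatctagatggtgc
Insig1 (chr5:28071176-28071220, + strand): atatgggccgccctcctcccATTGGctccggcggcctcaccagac
Srebf2 (chr15:82147114-82147158, + strand): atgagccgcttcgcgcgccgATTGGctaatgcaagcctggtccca
A match of 5 bases is a description of the letters, since it is also common among all promoters.

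**Figure D4:**
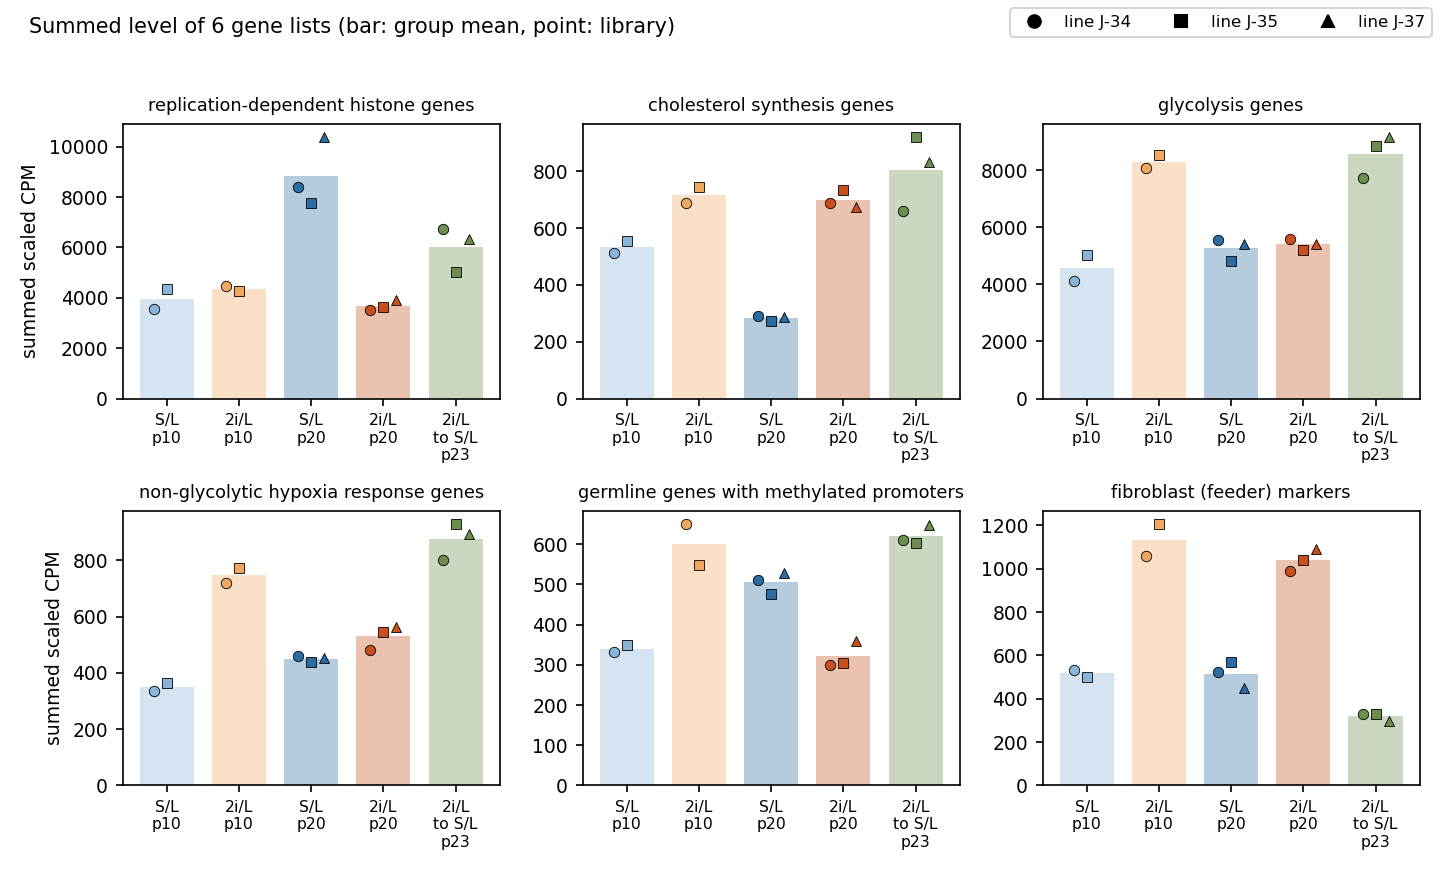
Summed scaled CPM of 6 gene lists in the 4 groups of passages 10 and 20 and in the libraries returned to S/L, with bars for group means and points for libraries. Histone genes are highest in S/L at passage 20 (7762 to 10394), cholesterol synthesis genes are lowest there (273 to 292), and glycolysis genes separate the media at passage 10 but not at passage 20.

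Glycolysis, the breakdown of glucose to pyruvate and lactate, lost most of its response to 2i/L. Of 19 genes 14 were called lower in the passage difference and 1, Hk2 on chromosome 6, higher, with a median of -1.13. The median 2i/L effect of the list was 0.97 at passage 10 and 0.18 at passage 20. All 19 were called higher in 2i/L at passage 10, and 9 were called higher and 4 lower at passage 20. Summed scaled CPM were 4117 to 5037 in S/L and 8067 to 8545 in 2i/L at passage 10, and 4812 to 5573 and 5219 to 5609.6 at passage 20, where the media overlapped. The libraries returned to S/L held 7717 to 9174. The phosphoglycerate kinase gene Pgk1 (chromosome X) held 70.8 and 96.1 in S/L against 242 and 247 in 2i/L at passage 10, and 103, 82.1 and 106 against 78.9, 72.6 and 72.0 at passage 20 (-1.93 ± 0.17, adjusted p = 9.07e-08). It was higher in 2i/L at passage 10 and lower at passage 20. The lactate dehydrogenase gene Ldha held 146 and 207 in S/L against 703 and 728 in 2i/L at passage 10, and 336, 273 and 330.4 against 389, 359 and 387 at passage 20 (-1.76 ± 0.18, adjusted p = 5.01e-07), so that it stayed higher in 2i/L with a smaller gap. Pfkfb3 (-2.19 ± 0.24), which makes an activator of phosphofructokinase, the platelet phosphofructokinase gene Pfkp (-1.79 ± 0.24) and the lactate exporter gene Slc16a3 (-1.87 ± 0.29) were also lower.

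Genes that hypoxia induces through HIF outside glycolysis had a smaller rise in 2i/L at passage 20 than at passage 10. Of 17 genes 15 were called higher and 1 lower in 2i/L at passage 10, and 11 higher and 2 lower at passage 20. Summed scaled CPM were 336 to 364 in S/L and 718 to 775 in 2i/L at passage 10. At passage 20 they were 438 to 459 and 481 to 563, so the media stayed apart. In the passage difference 12 were lower and none higher (median -0.69), and without library scaling 6 were lower and 1 higher. Bnip3, a mitophagy gene, held 7.95 and 16.6 in S/L against 64.2 and 72.5 in 2i/L at passage 10, and 32.5, 22.8 and 35.4 against 36.2, 33.3 and 35.6 at passage 20 (-2.28 ± 0.28, adjusted p = 3.04e-06). All 2i/L libraries stood above S/L at passage 10 and the media overlapped at passage 20. Ndrg1 (-2.27 ± 0.25), the HIF prolyl hydroxylase gene Egln3 (-1.74 ± 0.26) and the collagen prolyl hydroxylase gene P4ha1 (-1.62 ± 0.20) followed. In the libraries returned to S/L the summed level was 799.9 to 931, above the 481 to 563 of 2i/L at passage 20. The hypoxia response element core ACGTG was in 13 of 18 glycolysis promoters (72.2%) and in 29.8% of all 9909. Oxygen and cell density are not given in the labels.

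As a list, germline genes whose promoters are methylated in ESCs lost much of the rise that 2i/L gave at passage 10. Of 31 genes 17 were called higher and 10 lower in 2i/L at passage 10, and 7 higher and 17 lower at passage 20. In the passage difference 19 were called lower and 3 higher, with a median of -1.15. Of the 19, 3 were already lower in 2i/L at passage 10, and 3 had no called effect there. Summed over the list, scaled CPM were 331 to 348 in S/L and 548 to 651 in 2i/L at passage 10, and 476 to 528 and 301 to 358 at passage 20, so the order of the media turned around. Sohlh2, a transcription factor gene of early germ cells, held 12.2 and 10.4 in S/L against 58.6 and 54.3 in 2i/L at passage 10, and 19.3, 23.2 and 20.04 against 10.7, 11.3 and 10.2 at passage 20 (-3.19 ± 0.25, adjusted p = 1.82e-08). Fkbp6, a gene of meiotic chromosome pairing and piRNA function, held 5.19 and 6.43 in S/L against 39.1 and 33.9 in 2i/L at passage 10, and 15.2, 10.7 and 17.2 against 12.3, 13.1 and 19.18 at passage 20 (-2.51 ± 0.37, adjusted p = 2.93e-05). Rhox13 (chromosome X) was low throughout, with 0.483 and 0.631 in S/L against 2.95 and 2.16 in 2i/L at passage 10, and 5.09, 6.26 and 6.70 against 1.62, 1.33 and 1.19 at passage 20 (-3.31 ± 0.30). Tuba3b (chromosome 6) was lower (-2.95 ± 0.46), but Tuba3b and Tuba3a are near-identical, so their reads are uncertain. The 3 higher genes were Dnmt3l, Ddx4 and Tdrd1. Many members are near the detection limit, and among genes averaging 5 CPM or more 11 were lower.

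The E-box CACGTG occurs in promoters of this class, where the repressor complex of E2F6, MGA and MAX acts in ESCs. It was in 13 of 29 promoters (44.8%) and in 12.05% of all 9909. Windows of 6 germline genes with a negative passage difference show it in capitals, from RefSeq on GRCm38.p6 along the gene.
Fkbp6 (chr5:135350056-135350101, - strand): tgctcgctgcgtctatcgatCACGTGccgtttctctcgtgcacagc
Hormad1 (chr3:95559637-95559682, + strand): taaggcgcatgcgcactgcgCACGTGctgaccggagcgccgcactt
Tdrd9 (chr12:111971444-111971489, + strand): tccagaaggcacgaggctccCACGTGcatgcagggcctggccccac
Taf7l (chrX:134476514-134476559, - strand): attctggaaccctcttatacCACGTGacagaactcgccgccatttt
Slc25a31 (chr3:40708758-40708803, + strand): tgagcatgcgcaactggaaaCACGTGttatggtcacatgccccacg
Sycp1 (chr3:102936169-102936214, - strand): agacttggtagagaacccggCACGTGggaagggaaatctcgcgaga
The CpG inside this motif can be methylated, but methylation was not measured in these libraries.

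Most genes of the DNA methylation machinery gained relative to S/L, but their summed level did not. Of 13 genes 8 were higher and 1 lower, with a median of 0.57. Summed scaled CPM were 1934 to 1993 in S/L and 1454 to 1492 in 2i/L at passage 10. They were 2007 to 2169 and 1487 to 1505 at passage 20. Zfp57, which protects imprinted regions from demethylation, held 156 and 126 in S/L against 50.3 and 53.7 in 2i/L at passage 10, and 72.6, 68.8 and 76.3 against 143, 123 and 113 at passage 20 (2.21 ± 0.16, adjusted p = 1.04e-08). It was lower in 2i/L at passage 10 and higher at passage 20, as was the methylcytosine dioxygenase gene Tet2 (1.15 ± 0.16). Dnmt3a (0.86 ± 0.20) and Dnmt3b (0.45 ± 0.17), which encode de novo methyltransferases, and Dnmt3l (1.11 ± 0.24), which encodes their cofactor, were lower in 2i/L at both passages, by a smaller margin at passage 20. Dnmt3l held 83.8 and 108 in S/L against 3.34 and 3.13 in 2i/L at passage 10, and 228, 168 and 225 against 19.8, 14.5 and 16.6 at passage 20. Dnmt3b was the least stable of these and missed the threshold in 9 of 22 alternatives, with adjusted p up to 0.202 when 2i/L J-34 of passage 10 was left out. Neither gene of maintenance methylation was called, with 0.03 ± 0.11, adjusted p = 0.832 for Dnmt1 and 0.27 ± 0.12, adjusted p = 0.0825 for Uhrf1. Trim28, the corepressor that Zfp57 recruits, was the member that was lower (-0.85 ± 0.15). Among genes of Polycomb repressive complex 2, 1 of 11 was higher, Aebp2 on chromosome 6 (0.63 ± 0.16), and Phf19 (-1.04 ± 0.25) and Rbbp7 (-0.33 ± 0.11) were lower. Rbbp7 was near 0 without library scaling (0.0191, adjusted p = 0.952) and was not called without S/L J-34 of either passage or without 2i/L J-35 of passage 10 (adjusted p = 0.0502 to 0.116). Without scaling Trim28 (adjusted p = 0.0754) and Phf19 (adjusted p = 0.0538) were not called either.

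Imprinted genes, of which each is expressed mainly from 1 parental copy, had no common direction after library scaling. Of 17 maternally expressed genes 4 were higher and 3 lower (median -0.16), and of 23 paternally expressed genes 4 were higher and 5 lower (median -0.08). Without scaling 7 maternally expressed genes were higher and 1 lower (median 0.19). The neighbours H19 and Igf2 on chromosome 7 are normally expressed from opposite parental copies. H19 held 3.55 and 3.08 in S/L against 7.86 and 3.67 in 2i/L at passage 10, and 3.39, 3.33 and 1.66 against 24.1, 24.9 and 25.7 at passage 20 (2.37 ± 0.45, adjusted p = 0.000348). Igf2, a growth factor gene, held 1.70 and 1.304 in S/L against 1.39 and 0.743 in 2i/L at passage 10, and 1.74, 3.31 and 1.69 against 9.80, 11.5 and 12.2 at passage 20 (2.50 ± 0.41, adjusted p = 7.38e-05). Of the 10 libraries, those of 2i/L at passage 20 held the highest levels of both genes, in all 3 lines. Mest (chromosome 6, 1.76 ± 0.23) and its neighbour Copg2 (chromosome 6, 0.97 ± 0.13) went from lower to higher. Dio3 (2.11 ± 0.27) and Phlda2 (1.29 ± 0.28) were higher in the passage difference from low levels, while Usp29 (-1.48 ± 0.29) and Mirg (-0.96 ± 0.32) were lower. Mirg was not called without scaling, without S/L J-35 or 2i/L J-35 of passage 10, or without 2i/L J-34 of passage 20 (adjusted p = 0.0634 to 0.137). Allelic expression was not measured.

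Naive and core pluripotency factors changed in both directions, while 19.3% of all genes tested were higher and 20.6% lower. Of 18 naive factors 6 were higher and 4 lower (median 0.16). Nanog (chromosome 6) was higher in 2i/L at both passages and its passage difference was not called (0.34 ± 0.17, adjusted p = 0.122), and nor was that of Prdm14 (0.20 ± 0.21, adjusted p = 0.458). Tfcp2l1, a target of LIF and Stat3, held 349 and 283 in S/L against 622 and 683 in 2i/L at passage 10, and 148, 222 and 149 against 618, 625 and 621 at passage 20 (0.82 ± 0.22, adjusted p = 0.00526). Klf4 (0.44 ± 0.14), Esrrb (0.37 ± 0.11), Tbx3 (0.83 ± 0.24) and Gbx2 (1.36 ± 0.27) were also higher. Dppa3 (chromosome 6), which protects maternal methylation after fertilisation, held 3.95 and 4.14 in S/L against 41.6 and 31.6 in 2i/L at passage 10, and 3.87, 1.22 and 3.70 against 7.24, 8.47 and 11.9 at passage 20 (-1.43 ± 0.47, adjusted p = 0.0211). Klf2 (chromosome 8) was lower as well (-1.405 ± 0.27). Without 2i/L J-34 of passage 10 the calls of Esrrb (adjusted p = 0.0677), Klf4 (adjusted p = 0.1) and Dppa3 (adjusted p = 0.097) were lost. Klf4 was also lost without S/L J-35 of passage 10, and Dppa3 without either S/L library of passage 10 or without S/L J-34 or J-37 of passage 20. Among 12 core and general factors 3 were higher and 4 lower. Sox2 (-0.89 ± 0.11), Sall4 (-1.04 ± 0.15) and Trim28 were lower, Utf1 was higher (1.58 ± 0.23), and Lin28a, far lower in 2i/L at both passages, was not called (-0.75 ± 0.37, adjusted p = 0.112).

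Markers of formative and primed pluripotency, the states that follow the naive one, had a median of -0.86, with 6 of 12 lower and 3 higher. Otx2, a transcription factor of the formative state, held 2.91 and 4.81 in S/L against 1.63 and 3.19 in 2i/L at passage 10, and 37.1, 32.9 and 35.8 against 2.26, 2.12 and 1.103 at passage 20 (-3.38 ± 0.35, adjusted p = 4.82e-07). The media overlapped at passage 10, and at passage 20 every S/L library stood far above every 2i/L library. Grhl2, a driver of epithelial genes in this transition, held 6.13 and 8.91 in S/L against 6.53 and 5.98 in 2i/L at passage 10, and 18.9, 11.96 and 15.7 against 0.691, 0.782 and 1.07 at passage 20 (-3.33 ± 0.29, adjusted p = 5.47e-08). Zic2 was higher in 2i/L at passage 10 but not at passage 20, when S/L had reached the same level (-2.46 ± 0.20). The returned libraries held 28.5, 18.6 and 28.5 for Otx2, close to S/L at passage 20 in order of magnitude. The 3 higher members, Tcf15 (1.75), Dnmt3a and Dnmt3b, were lower in 2i/L at both passages with a smaller gap at passage 20.

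Among direct readouts of the inhibited kinases, most ERK targets were lower and most Wnt targets higher in 2i/L at both passages. Their passage differences went in both directions. Of 19 ERK feedback and target genes 14 were called lower and 1 higher in 2i/L at passage 10, and 17 lower and 1 higher at passage 20. The median 2i/L effect was -1.09 and -1.31. In the passage difference 4 were higher and 4 lower (median 0.17). With only genes averaging 5 CPM or more there were 4 higher and 1 lower, and without library scaling 6 higher and 2 lower. Without S/L J-34 or 2i/L J-35 of passage 10 there were 2 lower. Spry4, a feedback inhibitor of receptor signalling, held 69.7 and 76.5 in S/L against 0.169 and 0.0929 in 2i/L at passage 10, and 33.8, 27.2 and 32.2 against 0.908, 0.863 and 0.818 at passage 20 (2.34 ± 0.26, adjusted p = 1.07e-06). It was almost undetected in 2i/L at passage 10 and remained near 1 CPM at passage 20, so the fold is set by very low values. Etv4, a transcription factor gene under ERK control, held 79.2 and 79.3 in S/L against 9.17 and 9.81 in 2i/L at passage 10, and 62.3, 57.9 and 61.6 against 20.9, 26.0 and 22.4 at passage 20 (1.62 ± 0.25, adjusted p = 4.1e-05). Dusp6, the phosphatase gene for ERK itself, was about as low in 2i/L at both passages and not called (0.41 ± 0.22, adjusted p = 0.14). The immediate early genes Egr1 (-2.36 ± 0.30) and Fosb (-1.59 ± 0.38) were lower, with higher levels in S/L at passage 20 than at passage 10.

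Of 14 Wnt and beta-catenin targets 11 were called higher and 1 lower in 2i/L at passage 10, and 12 higher and 1 lower at passage 20. The median 2i/L effect was 1.61 and 1.38. In the passage difference 4 were higher and 6 lower (median -0.17). With only genes averaging 5 CPM or more 1 was higher and 5 were lower (median -0.88), so most of the higher calls were of genes with low levels. Axin2, the standard feedback target, was higher in 2i/L by 2.60 at passage 10 and 2.33 at passage 20 and was not called (-0.27 ± 0.24, adjusted p = 0.391). Tnfrsf19 held 2.20 and 2.02 in S/L against 58.8 and 52.2 in 2i/L at passage 10, and 3.81, 4.72 and 4.12 against 9.32, 11.6 and 14.9 at passage 20 (-3.04 ± 0.27, adjusted p = 9.3e-08), with the media apart at both passages. Sp5, a transcriptional repressor of Wnt targets, dropped within 2i/L from 15.9 and 16.3 to 4.18, 5.19 and 6.15 (-1.66 ± 0.27). The caudal-type homeobox gene Cdx1 was higher (2.04 ± 0.22), because its S/L level, 3.19 and 2.29 at passage 10, was 0.313, 0.275 and 0.356 at passage 20. The passage differences of the list thus went in both directions, from -4.94 for Lef1 to 2.04 for Cdx1.

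Nodal, TGF-beta and BMP genes had the widest span of any list, with 5 of 16 higher and 6 lower (median -0.14). Beside Inhbb, the ligand gene Bmp4 was higher (2.32 ± 0.30), with 5.19 and 6.30 in S/L against 0.185 and 0.194 in 2i/L at passage 10, and 2.33, 2.87 and 1.85 against 1.08, 0.924 and 1.18 at passage 20. The Nodal antagonists Lefty1 and Lefty2 were both lower. Lefty2 held 5.27 and 6.05 in S/L against 12.1 and 13.9 in 2i/L at passage 10, and 50.2, 39.4 and 47.9 against 26.8, 24.2 and 28.5 at passage 20 (-1.91 ± 0.33, adjusted p = 0.000157), and thus went from higher to lower in 2i/L while its level in both media was larger at passage 20. Among 15 LIF and Stat3 targets 3 were higher and 4 lower. Without S/L J-35 or 2i/L J-34 of passage 10 only 1 of these was higher. The metallothionein genes Mt1 (-1.74 ± 0.19) and Mt2 (-2.01 ± 0.21), which lie on chromosome 8, were lower although most called genes of that chromosome were higher. Il6st, the LIF coreceptor gene, was lower as well (-0.96 ± 0.11).

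Markers of other cell types were checked because a shift in cell types can move bulk values. Among 17 primitive endoderm markers 8 were higher and 1 lower (median 0.41), and 5 were higher with only J-34 and J-35 at passage 20. Their summed level was 786 to 888 in S/L and 802 to 909 in 2i/L at passage 10, and 586 to 636 and 709 to 797 at passage 20. The type IV collagen gene Col4a1 (chromosome 8) held 44.7 and 34.4 in S/L against 7.38 and 6.75 in 2i/L at passage 10, and 25.5, 33.97 and 19.06 against 32.7, 48.6 and 48.9 at passage 20 (3.13 ± 0.31, adjusted p = 3.11e-07). Its neighbour and partner Col4a2 was also higher (2.36 ± 0.33). Gata4, a transcription factor that defines this lineage, held 2.58 and 1.73 in S/L against 1.52 and 1.44 in 2i/L at passage 10, and 0.962, 0.779 and 1.20 against 4.53, 5.30 and 5.39 at passage 20 (2.33 ± 0.35, adjusted p = 3e-05), so it stayed a low transcript. Thbd, the thrombomodulin gene, was lower (-3.14 ± 0.35). Of 15 basement membrane genes, 8 were higher and 1 lower (median 0.54), among them the perlecan gene Hspg2 (0.87 ± 0.19), whereas Nid2 was lower (-0.88 ± 0.13).

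Trophoblast markers had 2 of 10 higher, the keratin genes Krt8 and Krt18, and 5 lower (median -0.65), among them Krt7 (-2.12 ± 0.33) and Rhox6 (-1.34 ± 0.32). Neural markers had 4 of 11 higher and 1 lower (median 0.45). Stmn3 (1.72 ± 0.31) and Crmp1 (1.53 ± 0.28) were higher at low levels, and Pax6 was lower (-1.69 ± 0.33). Of 5 measured mesoderm and endoderm markers Meis2 (-2.37 ± 0.37) and Cxcr4 (-2.27 ± 0.33) were lower and none was higher. Of 11 Hox genes, all under 10 CPM in each group mean, 3 were higher, among them Hoxd1 (1.19 ± 0.29) and Hoxd8 (0.99 ± 0.30), and Hoxb13 was lower (-1.32 ± 0.35). Hoxd8 was not called without 2i/L J-35 (adjusted p = 0.0594) or S/L J-34 (adjusted p = 0.101) of passage 10. The 3 measured two-cell stage genes, all Zscan4 copies that share sequence, were not called.

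Feeder cells express fibroblast genes, and most of these were higher in 2i/L at both passages. Of 19 fibroblast markers 13 were higher and 1 lower in 2i/L at passage 10, and 15 were higher and 4 lower at passage 20. In the passage difference 3 were higher and 3 lower (median 0.12). With only J-34 and J-35 at passage 20 there were 1 higher and 5 lower. Leaving out S/L J-34 or 2i/L J-35 of passage 10 gave 1 higher, leaving out S/L J-35 of passage 10 gave 5 higher, and leaving out S/L J-37 of passage 20 gave 5 lower. The median marker was higher at passage 20 than at passage 10, by 1.77 in S/L and by 2.10 in 2i/L. Over all genes tested these medians were 0.00 and -0.01. Within 1 medium, passage and library set cannot be told apart. Summed scaled CPM of the markers were 501 to 533 in S/L and 1057 to 1208 in 2i/L at passage 10. They were 448 to 568 and 989 to 1090.3 at passage 20. The fibronectin gene Fn1, which ESCs also express, made up much of these sums. Collagen genes rose from S/L to 2i/L at both passages: Col3a1 had group means of 0.531 and 27.1 CPM at passage 10 and 7.38 and 158 CPM at passage 20. Postn, a matrix protein gene of fibroblasts, was higher (1.38 ± 0.41), and so was Twist1 (1.29 ± 0.27). Vim, which encodes vimentin, held 32.4 and 31.8 in S/L against 73.9 and 71.9 in 2i/L at passage 10, and 132, 166 and 116 against 57.2, 53.6 and 49.3 at passage 20 (-2.52 ± 0.23, adjusted p = 1.63e-07), and S100a4 was lower at low levels (-1.71 ± 0.30). Postn was not called without 2i/L J-35 (adjusted p = 0.0886) or S/L J-34 (adjusted p = 0.108) of passage 10. The group mean of Col3a1 was thus highest in 2i/L at passage 20, and the part of feeder RNA in the results was not tested. In the actin, SRF and YAP list 4 of 15 were higher, led by Tpm2 (1.398 ± 0.26), Tagln (1.06 ± 0.25) and Cnn2 (0.98 ± 0.23), and 3 were lower, led by Cyr61 (-1.01 ± 0.22).

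Large gene groups for protein synthesis and respiration moved by small amounts. Of 61 cytosolic ribosomal protein genes 26 were lower and none higher (median -0.34), for example Rps12 (-0.69 ± 0.15), Rpl3 (-0.60 ± 0.13), Rpl10a (-0.56 ± 0.15) and Rps9 (-0.55 ± 0.13). Without library scaling none of these was lower, with only J-34 and J-35 at passage 20 there were 7, and without S/L J-34 at passage 10 there were 6, so the count rests on the scaling and on single libraries. Of 75 mitochondrial ribosomal protein genes 6 were higher, among them Mrps16 (0.80 ± 0.13), Mrpl34 on chromosome 8 (0.64 ± 0.15) and Mrps25 on chromosome 6 (0.64 ± 0.15), and 10 were lower, among them Mrpl45 (-0.73 ± 0.16). Leaving out S/L J-35 of passage 10 gave 3 higher in this list, and leaving out S/L J-34 gave 11 higher and 6 lower. Of 74 respiratory chain genes 10 were higher, among them Ndufa4 on chromosome 6 (0.70 ± 0.14), Ndufb7 on chromosome 8 (0.64 ± 0.12) and Ndufc1 (0.56 ± 0.18), and 8 were lower, among them Ndufv3 (-0.76 ± 0.16). Without S/L J-35 of passage 10 only 3 of them were higher, and without S/L J-34 only 2 were lower. Without scaling the mitochondrial ribosomal and respiratory lists had 17 and 21 genes higher, respectively, and none lower, Mrpl45 and Ndufv3 included. Ndufc1 was not called without S/L J-35 (adjusted p = 0.126) or 2i/L J-34 (adjusted p = 0.0779) of passage 10.

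Most other pathways had called members of both directions. The share over all genes tested was 19.3% higher and 20.6% lower, and the counts of the amino acid and ATF4 list lay near it. Among 19 p53 targets 4 were lower and none higher, Sesn2 (-1.03 ± 0.24), Bbc3 (-0.68 ± 0.21), Phlda3 (-0.65 ± 0.22) and Trp53inp1 (-0.58 ± 0.22), but without scaling 3 were higher and 1 lower. Of these 4, Bbc3 was not called without S/L J-34 of passage 10 (adjusted p = 0.0691), Phlda3 without any single library of passage 10 (adjusted p = 0.0514 to 0.0655), and Trp53inp1 in 6 of 10 fits that left out a library (adjusted p up to 0.237). The p21 gene Cdkn1a was not called (-0.29 ± 0.23, adjusted p = 0.333). Of 21 amino acid and ATF4 response genes 4 were higher, led by Pycr1 (0.92 ± 0.18), and 4 lower. The lower ones were led by the cystine transporter gene Slc7a11 (-1.41 ± 0.44) and the collagen receptor gene Ddr2 (-1.36 ± 0.32). Slc7a11 was not called without S/L J-34 (adjusted p = 0.059) or 2i/L J-35 (adjusted p = 0.0634) of passage 10. Of 14 cyclins and cell cycle inhibitors 3 were higher, led by Ccne1 (0.69 ± 0.18), and 3 lower, namely Ccne2 (-1.097 ± 0.21), Cdkn2a (-0.92 ± 0.23) and Ccnd1 (-0.88 ± 0.24, not called without scaling, adjusted p = 0.0835). Interferon response genes had 3 of 15 higher, among them B2m (1.27 ± 0.20), the light chain of class I molecules, and 4 lower, among them Ifitm1 (-2.31 ± 0.31) and Irf1 (-1.64 ± 0.20). Of 14 genes of IGF and insulin signalling 2 were higher and 6 lower, among them Igfbp2 (-1.07 ± 0.20) and the imprinted receptor gene Igf2r (-0.94 ± 0.17). The nuclear RNA Malat1 was higher (0.94 ± 0.28), Snhg1 (-1.19 ± 0.19) and Gas5 (-0.38 ± 0.14), hosts of small nucleolar RNAs, were lower, and Neat1 (0.21 ± 0.32, adjusted p = 0.632) was not called. Malat1 was not called without S/L J-34 (adjusted p = 0.122) or 2i/L J-35 (adjusted p = 0.0526) of passage 10, and Gas5 in 6 of 10 fits that left out a library (adjusted p up to 0.165) and without scaling (adjusted p = 0.917).

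Several list counts moved with the genes or libraries that entered. Without the genes of chromosomes 6 and 8 the number of higher genes went from 8 to 6 for the DNA methylation, primitive endoderm and basement membrane lists, from 10 to 6 for respiratory chain genes and from 6 to 3 for mitochondrial ribosomal protein genes. It went from 4 to 1 for amino acid and ATF4 response genes, from 4 to 3 for Wnt targets and both imprinted lists, and from 3 to 1 for interferon response genes. It went from 3 to 2 for core pluripotency, cyclin and Hox genes, from 2 to 1 for IGF genes, and from 1 to 0 for glycolysis and Polycomb genes. The number of lower genes went from 19 to 16 for germline genes and from 4 to 2 for naive factors and LIF targets, and by 1 each for histone, glycolysis, hypoxia, cytosolic ribosomal protein and respiratory chain genes. With only genes averaging 5 CPM or more, 4 primitive endoderm markers were higher and none lower, 1 trophoblast marker was lower and none higher, 2 neural markers were higher and none lower, and no Hox gene was called. In that setting 2 Nodal and BMP genes, 2 paternally expressed and 2 maternally expressed genes were higher, and 2 paternally expressed genes were lower. Without library scaling, 2 naive factors, 2 core factors and 3 IGF genes were lower, 5 interferon response genes were higher and 2 lower, and 7 genes of the actin list were higher. Of interferon response genes 2 were lower without S/L J-34 or 2i/L J-34 of passage 10, and 2 p53 targets were lower without any single library of passage 10. Without 2i/L J-34 of passage 10, 1 IGF gene and 4 respiratory chain genes were higher and 1 sterol uptake gene was lower. Of Hox genes 1 was higher without S/L J-34 or 2i/L J-35 of passage 10. Of cytosolic ribosomal protein genes 11 were lower without 2i/L J-34 of passage 10, and 14 without 2i/L J-35 of either passage or S/L J-37 of passage 20. Of respiratory chain genes 2 to 5 were lower when any library was left out other than S/L J-35 of passage 10 and both J-34 libraries of passage 20.

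**Figure D5:**
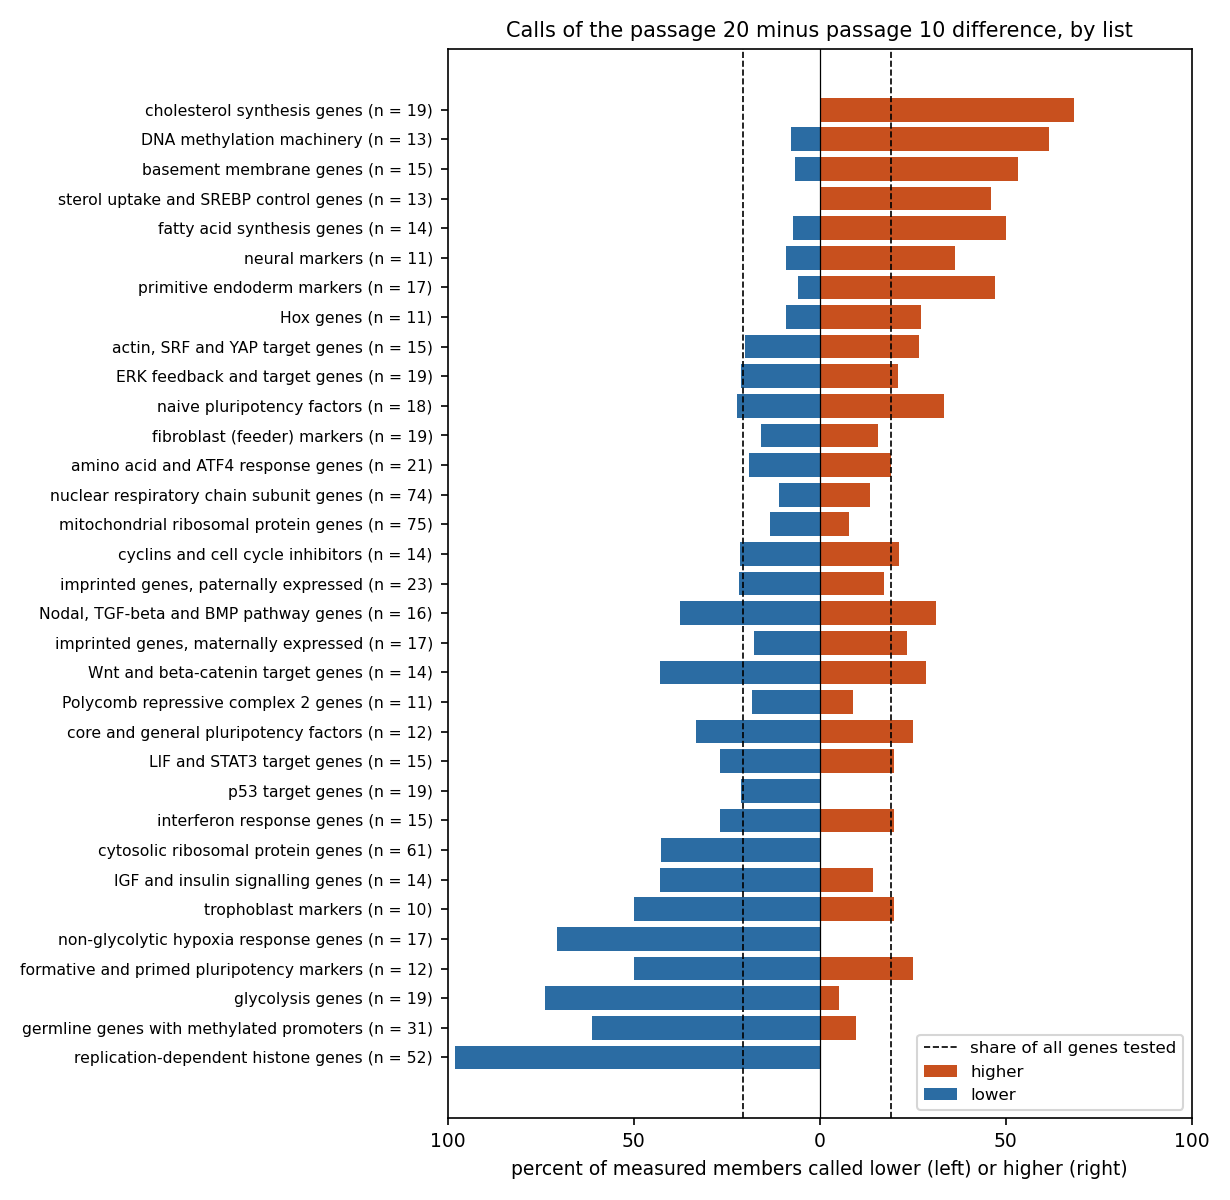
Percent of the measured members of each list with at least 10 measured genes that were called lower (to the left) or higher (to the right) in the passage difference, with dashed lines at the share over all genes tested (20.6% lower, 19.3% higher). Histone and glycolysis genes lie farthest to the lower side and cholesterol synthesis genes farthest to the higher side.

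Base composition moved with the passage difference over the whole transcriptome. In 5 bins of about equal gene number, from low to high GC content of their exons, the median was -0.19, -0.09, -0.05, 0.09 and 0.21, and the number of genes called higher went from 219 to 734. Without chromosomes 6 and 8 the lowest and highest bins stood at -0.22 and 0.16. The median GC content of the measured members was 50.1% for cholesterol synthesis genes, 52.7% for glycolysis genes, 48.7% for germline genes and 57.8% for histone genes. The part of GC content in these results was not tested. The bin with the shortest exon sequence had a median of -0.09, and histone genes are short.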

How the data were processed

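Gene levels were deposited by the authors as linear CPM per gene and library, and the table gives no read counts, so library depth is unknown here and count tests were not run. Per the submitters' processing notes, the tools were edgeR 3.8.6, HTSeq 0.6.0, STAR 2.3.0, SAMtools 0.1.18.0 and Picard 1.100, and the builds mm9 and NCBIM37. CPM were divided by scale factors from an own unweighted TMM (trims 0.3 and 0.05), since the columns sum to different totals. Genes with at least 1 CPM in at least 2 of the 10 libraries were kept. Log2(scaled CPM + 0.5) was fitted with limma 3.58.1 in R 4.3.3, with 1 mean per group over all 19 libraries (8 groups, 11 residual degrees of freedom) and eBayes with trend, and adjusted by Benjamini-Hochberg at 0.05. The scripts were tested on simulated data. A line number in the titles marks 1 ESC line in every group and so pairs the libraries; residuals of the same line at passage 20 had r = 0.07, 0.11 and -0.03, and a fit with the line as block was run as an alternative. For 2 libraries outside the comparison, which enter only the estimate of the spread, title and generation label name different lines. Members and gene lists were chosen with earlier results of these data known. Named are the 12 largest called passage differences each way at 5 CPM or more in a group, up to 4 called genes per list, up to 6 reversed genes each way, a fixed panel and indicator genes; a few other list members are named where a count of 5 or fewer called for it. Some selected genes are not reported here. Chromosomes (12716 genes) came by symbol from RefSeq, and for 261 of these genes from GENCODE M21. Exon GC content (11604 genes) came by symbol from GENCODE M21, promoters from RefSeq GRCm38.p6. Alternatives were other or no scaling, pseudocounts of 0.1 and 1, other filters, only the 10 libraries, the line block, 2 lines only, chromosomes 6 and 8 left out, and each library left out in turn.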

Additional observations from a re-analysis of the deposited data

Results flagged for a closer look

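Of the 652 genes whose called effect reversed, the naming rule picked 6 each way with the largest smaller effect of the 2 passages. In these 12 genes every library of 2i/L lay on one side of S/L at passage 10 and on the opposite side at passage 20. This separation follows largely from the choice and is no separate support for the reversals. Those that went from lower to higher in 2i/L were Rapgef3 (3.09), Bst2 (3.00), Slc52a3 (2.76), Vash1 (2.54), Necab2 (2.49) and Col5a3 (2.23). Those that went from higher to lower were Lef1 (-4.94), Slfn9 (-3.58), Fetub (-3.54), Rhox13 (-3.31), Stc2 (-3.14) and Zfp951 (-2.64). Bst2 and Necab2 lie on chromosome 8, whose genes were raised together in 2i/L at passage 20. Values are log2 passage differences with 10 libraries each.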

How the results depend on the processing

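Library scaling had the largest effect. Without scaling the passage difference was called higher for 3843 and lower for 910 genes, of which 1589 and 482 reached 2-fold. The 2i/L effect at passage 20 was then higher for 6443 and lower for 1555 genes. Passage 20 against passage 10 gave 870.0 higher and 7770.0 lower genes in S/L and 1722 higher genes in 2i/L, and 85 genes reversed from higher to lower. Rbbp7 turned to 0.0191 (adjusted p = 0.952). With only genes of a mean of at least 5 CPM there were 350 higher and 384 lower genes at 2-fold, and 219 reversals from lower to higher. In that setting 1984 genes were higher at passage 20 than at passage 10 in 2i/L. Leaving out chromosomes 6 and 8 gave 218 reversals from lower to higher. Leaving out 1 library in turn gave 1929 to 2382 higher and 2043 to 2497 lower genes, 211 to 302 reversals from higher to lower and 214 to 298 from lower to higher, the lowest without 2i/L J-34 of passage 10. With the ESC line as replicate block, the pairing gave 2525 higher and 2708 lower genes and changed none of the calls of the 169 genes that the naming rule selected. Of the 156 of these that were called, 129 were called in every alternative in which they were tested (20 to 22 of the 22), 15 were not called without scaling, and median-of-ratios scaling changed none. Tagln was lost with a pseudocount of 1 CPM, and Postn and Slc7a11 with one of 0.1. No read counts were at hand, so precision is that of 2 or 3 libraries per group, with a median standard error of 0.19. Without scaling, list medians of -0.34 to -0.01 turned to 0.01 to 0.33 for Wnt, Nodal, LIF, p53, interferon, cyclin, core pluripotency, Polycomb, imprinted, ribosomal protein and respiratory genes. Without S/L J-34 of passage 10 the lower genes among ERK, ATF4, interferon and p53 targets went from 4 to 2 each.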
